A study of Mus musculus with 2 samples.

Results

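The suppressive Lag3 Itgae Il10 Cxcr6 regulatory T cells (Tregs) described here are the islet Tregs in which at least 3 UMIs (molecular tags that count captured transcripts once each) of Lag3, Itgae, Il10 and Cxcr6 were counted together. They were chosen from their own counts: 200 to 5000 genes, at most 20% mitochondrial UMIs, no UMI of Cd8a or Cd8b1, at least 1 UMI of Cd4, Foxp3, Il2ra or Ikzf2, at least 3 UMIs of Cd3d, Cd3e and Cd3g, under 20 UMIs of Jchain, and under 3 UMIs of the 5 proliferation genes Mki67, Top2a, Birc5, Ube2c and Cdk1. The rule gave 1063 cells of the 5795 barcodes in the series, 637 of them wild-type and 426 knockout. They are called gated Tregs below, and the 1852 remaining Tregs (877 wild-type and 975 knockout) are called other Tregs.

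The libraries were made from islet-infiltrating T cells of NOD mice, a strain with spontaneous autoimmune diabetes. The wild type was NOD.Foxp3-EGFP and the knockout was NOD.Tnfrsf9-/-.Foxp3-EGFP, which lacks CD137 (4-1BB, the product of Tnfrsf9) in every cell, so its Tregs matured among CD8 and CD4 T cells that lacked it as well. Both carry the Foxp3-EGFP reporter, by which Tregs were sorted, and each library pooled the islets of 6 females, 9 to 10 weeks old, and held sorted CD8 T cells beside the Tregs. With 1 library per genotype there was no replicate, so no test was possible between genotypes: the intervals given are 95% intervals of counting error only, and genes are called by the size of the ratio alone.

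Tregs restrain other T cells through surface receptors, cytokines and enzymes. LAG-3 binds MHC class II on antigen-presenting cells, CD103 (the αE integrin chain, Itgae) binds E-cadherin and helps to hold T cells in tissue, IL-10 dampens antigen-presenting cells, and CXCR6 is a chemokine receptor of tissue T cells. Together they mark Tregs that have left the resting, recirculating state. CD137 is a costimulatory receptor of the TNF receptor superfamily that Tregs carry after activation and that signals through TRAF proteins to NF-κB.

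In all, 3545780 UMIs came from the wild-type gated cells and 2371081 from the knockout ones, at medians of 4769 and 4994 UMIs and 2000 and 2108 genes per cell. Other Tregs were shallower, with medians of 3989 and 3967 UMIs. Among the gated cells 108 wild-type and 117 knockout UMIs came from Foxp3 (30.5 and 49.3 CPM, counts per 1000000 UMIs of the group), while Ikzf2, which encodes the Treg factor Helios, reached 2075 and 2378 CPM. The rule reads both genes, so these levels only describe the cells it chose. Markers of other cells were scarce: the B and plasma cell list (7 genes found) summed to 3.95 and 6.75 CPM, the natural killer list (5 genes) to 4.23 and 8.86 CPM, and of the macrophage markers Csf1r and C1qc were at 0 in both libraries, C1qa had 2 and 4 UMIs and C1qb 1 and 2. The myeloid list (11 genes) summed to 229 and 129 CPM, of which Cd74 gave 733 of 813 and 237 of 307 UMIs. Without Cd74 it stood at 22.6 and 29.5 CPM. The stroma and endothelium list (7 genes) summed to 29.9 and 43.0 CPM, nearly all of it Pecam1, which T cells also express. RNA of the pancreas was present at low levels, with the acinar list (11 genes) at 38.1 and 87.3 CPM and the endocrine list (7 genes) at 25.1 and 33.7 CPM. The libraries shared 16 barcode sequences, of which 2 wild-type and 7 knockout cells were gated, and none was gated in both.

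The gate took a larger part of the wild-type Tregs. Its share was 42.1% of Tregs in the wild-type library, with a Clopper-Pearson interval of 39.6 to 44.6%. In the knockout library it was 30.4% (28.0 to 32.9%), which is -11.7 points from the wild type by Newcombe's interval of -15.1 to -8.19. With each Treg thinned to 2000 UMIs and 2 or more UMIs of the 4 genes required, the shares were 35.1% and 25.04%, a difference of -10.0 points (-13.4 to -6.66). The direction was the same at equal depth. Among Tregs that met the score, the proliferation limit left out 113 of 750 wild-type and 102 of 528 knockout cells, and the Jchain limit left out none in either library. The share is a direct readout of the genes that define the gate, and with 1 library per genotype it is a description of these libraries. The cells were sorted before the libraries were made, so the share says nothing of the number of Tregs in the islets.

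**Figure D1:**
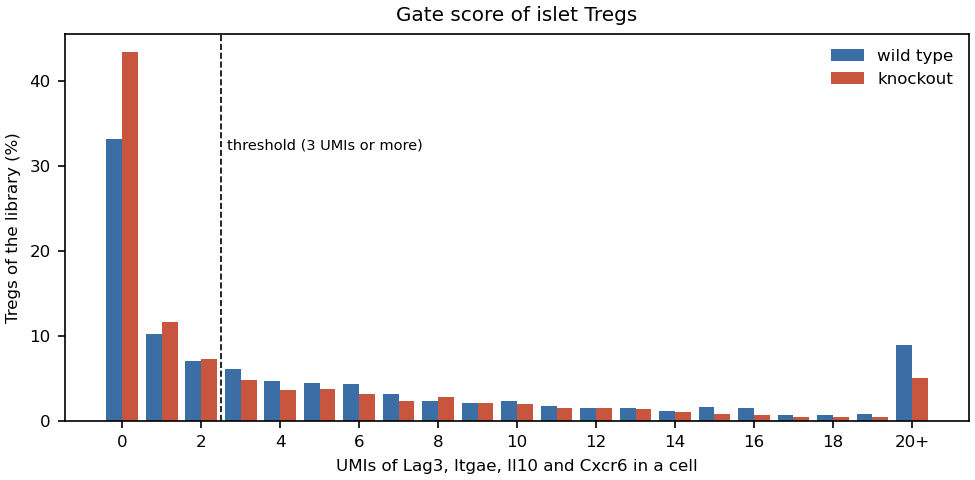
Share of the Tregs of each library (y axis, %) by the number of UMIs of Lag3, Itgae, Il10 and Cxcr6 in a cell (x axis, with 20 and above as 1 bin); the dashed line marks the threshold, and the proliferation limit is not applied here. In the wild type 33.2% of Tregs had none of these UMIs, and the gated cells had a median of 8 in each library.

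The 4 genes did not contribute equally. Lag3 had a UMI in 586 of 637 wild-type and 363 of 426 knockout gated cells (92.0% and 85.2%), Itgae in 75.04% and 71.8%, Il10 in 36.4% and 42.7%, and Cxcr6 in 29.0% and 33.1%. Thinned to 2000 UMIs per cell, Lag3 was seen in 77.6% and 66.6% of gated cells, Itgae in 57.1% and 52.7%, Il10 in 25.8% and 27.2% and Cxcr6 in 18.8% and 21.5%. In CD8 T cells with resting markers (at least 3 UMIs over a set that includes Lef1 and Ccr7), which should lack Il10, the thinned share with an Il10 UMI was 0.360% and 0.557%, at median depths of 5964 and 5168 UMIs before thinning. For the other gate genes these CD8 T cells, which can express them, had shares of 15.8% and 6.69% (Lag3), 10.8% and 13.6% (Itgae) and 16.9% and 11.6% (Cxcr6). The Cxcr6 share of wild-type gated cells was thus close to that of the CD8 T cells. All 4 genes were seen in 11.5% of gated cells in each library, and 1 gene alone reached the threshold in 18.7% and 20.2%. Cells just inside and just outside the threshold were alike in several genes: cells with a score of 3 had 323 CPM of Nkg7 in 81 wild-type cells and 213 in 58 knockout cells, and cells with a score of 2 had 209 (93 cells) and 290 (86 cells).

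The gate did not read Tnfrsf9, the gene that the knockout lacks. In the knockout, 407 UMIs of the gene remained in gated cells, at 172 CPM (155 to 189) against 516 CPM (492 to 540, 1829 UMIs) in the wild type. Other Tregs stood at 84.3 CPM (76.9 to 92.2) and 218 CPM (206 to 231). The knockout was therefore lower by a log2 ratio of -1.59 (-1.75 to -1.43) inside the gate and -1.37 (-1.53 to -1.22) outside it, and the intervals of the 4 levels did not overlap. Which exons the knockout allele lacks is not given in the sources used here. The study examined Tnfrsf9 splicing in wild-type Treg reads and described few informative UMIs, but not where all the 3′ reads fall along the transcript. These counts therefore check the labels only in part. Within each library the gated cells held more of it than other Tregs, by 2.37-fold (wild type) and 2.04-fold (knockout). At 2000 UMIs per cell, 47.9% of wild-type and 29.1% of knockout gated cells had a Tnfrsf9 UMI, against 23.2% and 12.9% of other Tregs and 6.47% and 2.92% of resting-type CD8 T cells.

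Tnfrsf9 lies on the plus strand at chr4:150914562-150946102 (mm10). Its promoters are shown because the gene is the one deleted and is known to follow T cell activation through NF-κB and AP-1. RefSeq (GRCm38.p6) gives it a pair of start sites, and each window below holds 250 bases before to 50 after one of them, at chr4:150919905-150920204 and chr4:150927749-150928048. The search covered both strands for an AP-1 type motif, TGANTCA, found in 7.81% of 32851 promoters of this length, and an NF-κB type motif, GGGNNNNNCC, found in 50.8%, with both in 3.19%. Capitals mark the matches in the downstream window, TGAGTCA and a pair of overlapping NF-κB type matches read as GGGGATTTCC and GGGATTTCCC, while the upstream window held neither motif. A match describes these letters only.
Tnfrsf9 upstream window: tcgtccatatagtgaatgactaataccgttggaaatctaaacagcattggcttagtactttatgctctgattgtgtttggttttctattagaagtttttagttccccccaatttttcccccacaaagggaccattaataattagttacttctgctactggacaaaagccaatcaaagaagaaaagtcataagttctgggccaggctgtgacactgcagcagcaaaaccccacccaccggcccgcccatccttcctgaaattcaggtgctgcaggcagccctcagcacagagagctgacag
Tnfrsf9 downstream window: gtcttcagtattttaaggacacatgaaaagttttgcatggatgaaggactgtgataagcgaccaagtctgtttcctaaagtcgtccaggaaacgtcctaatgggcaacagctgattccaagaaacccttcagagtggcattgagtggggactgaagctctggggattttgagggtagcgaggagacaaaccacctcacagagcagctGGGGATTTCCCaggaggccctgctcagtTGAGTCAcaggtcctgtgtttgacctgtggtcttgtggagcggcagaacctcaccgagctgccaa

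Among the genes higher in gated than in other Tregs of the same library were effector, chemokine and granule genes. Among the lower ones were genes of resting and recirculating T cells and, by the rule, cell cycle genes. The gate was set on these cells' own counts, so what follows describes what else the cells held and is not a test. Of 8756 genes with enough UMIs, 118 (1.35%) were at least 2-fold higher and 288 (3.29%) at least 2-fold lower in both libraries (4.64% either way). The median log2 ratio over all 8756 was 0.01 for wild-type and 0.02 for knockout cells. With a Foxp3 UMI required, 36 were higher and 76 lower of 4038 measured. At a UMI minimum of 200, 70 were higher and 109 lower of 5290.

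Of 20 suppressive effector genes, 8 were higher and none lower, with list medians of 0.80 and 0.77. Entpd1, which encodes the ATP-degrading enzyme CD39, stood at 108 and 123 CPM in wild-type and knockout gated cells and at 32.6 and 41.8 CPM in other Tregs. Fgl2, a secreted suppressive protein, had 110.0 and 125 CPM against 32.4 and 43.2. Havcr2, the inhibitory receptor TIM-3, had 41.2 and 61.2 CPM against 11.2 and 9.66. In each of these 3 genes both gated levels lay above both levels of other Tregs. Itgb8 and Itgav encode the chains of the integrin that activates TGF-β, and Itgb8 was higher by log2 1.45 and 1.60, Itgav by 1.23 and 1.21. The inhibitory receptor Tigit followed with 1.25 and 1.18, the chemokine receptor Ccr8 with 1.54 and 1.40. Granzyme B (Gzmb) had 145 and 176 CPM against 57.4 and 44.1, but with a Foxp3 UMI required its wild-type ratio turned to -0.41. Ctla4, the most abundant checkpoint receptor of the list at 2063 and 2098 CPM, did not reach 2-fold (0.74 and 0.88).

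Among 16 effector transcription factors, 7 were higher and none lower, with medians of 0.83 and 0.77. They were Ahr, Id2, Maf, Nfil3, Prdm1, Runx2 and Tbx21. Id2, an inhibitor of E proteins, had 437 and 345 CPM against 160 and 126, and Maf, which drives Il10 in many T cells, had 578 and 762 CPM against 285 and 341. Tbx21 (T-bet), the master factor of type 1 T cells, was higher by 1.59 and 1.54. Prdm1 (Blimp-1), a factor of effector Tregs, was higher by 1.14 and 1.42. Gata3, the type 2 factor, was level, with ratios of -0.08 and 0.11.

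**Figure D2:**
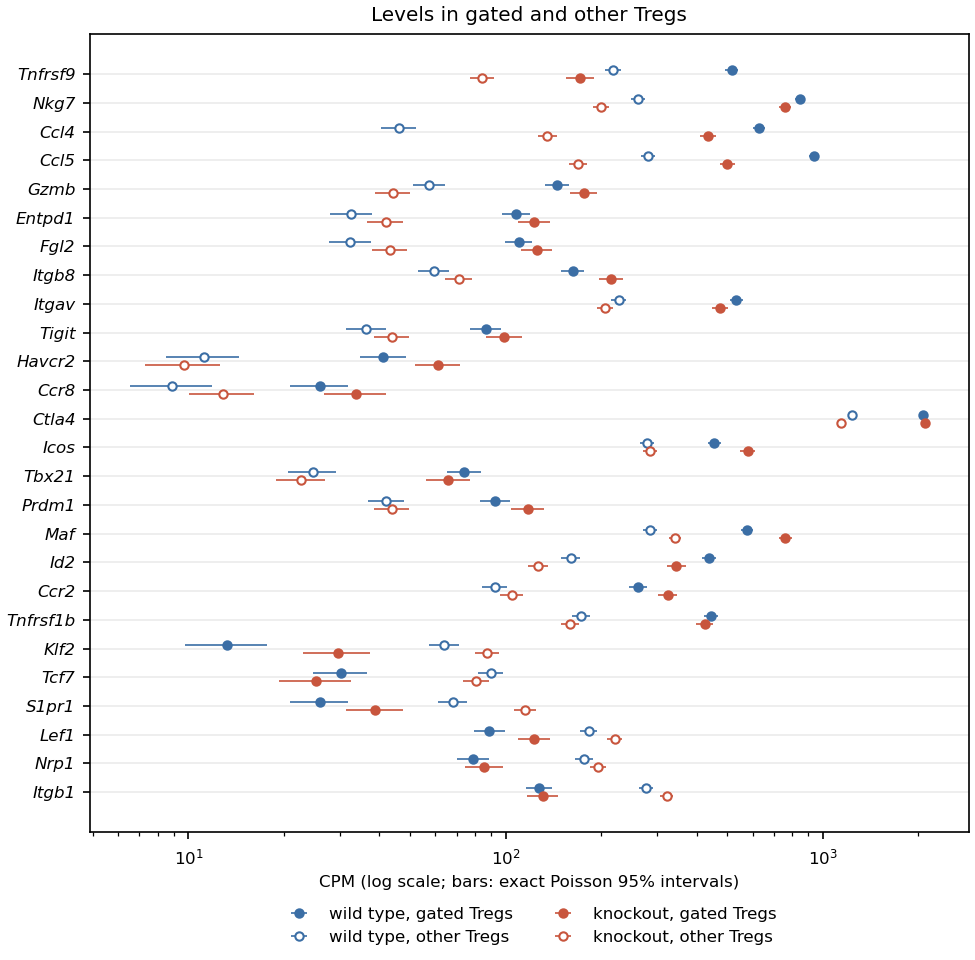
Summed level (CPM, log axis) of genes outside the gate in gated and other Tregs of each library, with exact Poisson 95% intervals that cover counting error only. Entpd1, for example, lies at 108 and 123 CPM in gated cells and at 32.6 and 41.8 CPM in other Tregs.

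Of 7 granule genes, 4 were higher and none lower. Nkg7, a membrane protein of cytotoxic granules and the top gene of the ranking, had 844 and 759 CPM in gated cells against 262 and 200 CPM in other Tregs. The granule protease genes Ctsw (1.39 and 1.40) and Gzmk (1.43 and 2.15) were also higher, beside Gzmb. Of 9 cytokine and chemokine genes, Ccl4, Ccl5 and Penk were higher and none lower. Ccl5, a chemokine that draws T cells and monocytes, had 939 and 500 CPM against 282 and 169. Ccl4, an inflammatory chemokine, had 629 and 434 CPM against 46.0 and 135. Among the 15 highest in the ranking were also Angptl2, Csf1, Hip1, Setbp1, Ccr2, Id2, Pglyrp1, Tnfrsf1b, Neb, Arl5a and Entpd1. Csf1, the macrophage growth factor, was higher by 2.24 and 2.07. Ccr2, a receptor that guides cells into inflamed tissue, had 261 and 324 CPM against 92.3 and 105. Of 14 homing receptors 3 were higher, Ccr2 and Ccr8 among them, and the integrin chain Itgb1 was lower (-1.12 and -1.30).

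Resting and recirculation genes ran the other way. Of 12 measured, 6 were lower and none higher, with medians of -1.15 and -1.18. Klf2, a factor that keeps T cells circulating, fell to 13.3 and 29.5 CPM from 63.8 and 87.3 in other Tregs. Its target S1pr1, the egress receptor, had ratios of -1.39 and -1.57. The naive and memory T cell factors Tcf7 (-1.57 and -1.67), Bach2 (-1.29 and -1.23) and Id3 (-1.39 and -1.32) were also lower. Lef1 missed the threshold in the knockout (-1.04 and -0.84).

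Of 15 Treg identity genes, a list without Foxp3, none was higher and 1, Nrp1 (neuropilin-1, carried by thymus-derived Tregs), was lower (-1.16 and -1.19). Of 10 TNF receptor family and ligand genes, a list without Tnfrsf9, Tnfrsf1b (TNFR2, a Treg growth receptor) was higher at 444 and 423 CPM against 173 and 160. Tnfrsf8 was also higher (1.35 and 1.62), and Tnfsf11 (RANKL) was lower (-1.05 and -1.07). Tnfrsf4 (OX40) stood just at the threshold with 1.04 and 0.95. None of 15 TRAF and NF-κB genes, 11 T cell receptor signalling genes, 13 interferon response genes, 13 glycolysis genes, 13 S100, annexin and galectin genes or 15 genes of handling stress passed in either direction. Of 12 genes of follicular or recently activated cells, Tcf7 alone passed, lower, and of 6 genes taken from the study's text on Tregs of other mice, without the gate gene Lag3, Klf2 alone, lower. The 10 lowest genes of the ranking were all cell cycle or chromatin genes, among them Stmn1, Rrm2, Ccna2 and Hmgb2. The rule removes proliferating cells from the gate and leaves them among other Tregs, so their order follows from the rule. Without the proliferation limit, 130 genes in place of 288 were lower.

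The gated Tregs were not uniform. Among them 49.6% of wild-type and 40.6% of knockout cells had no UMI of Il10 or Cxcr6, 21.4% and 26.3% had Il10 alone, and 15.1% and 16.4% had both. Gated cells with an Il10 UMI (232 wild-type, 182 knockout) were compared with those without (405 and 244), at like depth (medians of 4768 and 4769 UMIs for wild-type cells, 4994 and 4976 for knockout cells). These splits use counts of the same cells, and the genes were ranked after the values were seen. Ccl4 stood at 1281 CPM with Il10 and 267 without in wild-type cells, and at 809 and 146 in knockout cells. Gzmb stood at 297 and 60.5 CPM and at 275 and 100.1. Prdm1 was higher by 0.98 and 0.73 and Maf by 0.70 and 0.76 in the cells with Il10. Tcf7 was lower there, at 10.3 CPM against 41.2 and at 4.85 against 41.1, as was Id3 (-2.55 and -3.06). Both rest on few UMIs in the cells with Il10, 13 and 5 for Tcf7 and 7 and 6 for Id3. Ccl5 did not keep 1 direction, with 0.30 in wild-type cells and -0.42 (-0.59 to -0.24) in knockout cells.

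Cells with a Cxcr6 UMI (185 and 141) had Ccl4 higher by 1.99 and 1.79, Ccl5 by 0.93 and 0.82, Ccr2 by 1.22 and 1.25 and Gzmk by 1.48 and 1.92. The calcium-binding protein gene S100a4 was higher by 1.06 and 1.00, and Tcf7 was lower (-2.27 and -3.70). Tcf7 had only 8 and 2 UMIs in the cells with Cxcr6, and its knockout interval was wide (-6.78 to -1.78). Prdm1 stood at 0.95 and -0.30 (-0.71 to 0.09) in this split. Cells with Itgae (478 and 306) had more Ccl5, by 0.91 and 1.08, and more Il18r1, a receptor chain for the cytokine IL-18, by 1.23 and 1.02, and they had less Tcf7 (-2.61 and -2.84). Cd101, an inhibitory surface protein, was higher by 1.76 and 1.32. Cells without Itgae were deeper, with medians of 5713 UMIs against 4731 (wild type) and 5509.5 against 4828.5 (knockout). Those without Cxcr6 had 4953.5 against 4478 and 5098 against 4590. The part of depth in these ratios was not tested. In each split the cells without the gene had to reach the threshold through the other gate genes.

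The gated cells without Lag3 were few, 51 and 63, and had to hold at least 3 UMIs of the other genes. They held more of Il7r, the IL-7 receptor (105 CPM against 26.6 in the wild type, 122 against 34.3 in the knockout). The IL-33 receptor gene Il1rl1 (ST2) stood at 50.3 CPM against 11.5 and at 126 against 14.99. Gata3 was at 176 CPM against 87.4 and at 195 against 88.0, and Klrg1, a receptor of terminally differentiated cells, at 62.8 against 24.5 and at 162 against 18.9. Il1rl1, Gata3 and Klrg1 are known from Tregs of barrier tissues. Gated cells without Lag3 were somewhat shallower (medians of 3926 and 4177 UMIs) than those with Lag3 (4842 and 5097).

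Gated cells with a Tnfrsf9 UMI (415 and 188) held more Il1r2, a decoy receptor for IL-1, at 209 CPM against 78.2 (wild type) and 116 against 62.9 (knockout). Nr4a1, an immediate early gene of the T cell receptor, was higher by 1.04 and 0.79, Areg, a tissue repair factor, by 0.89 and 1.99, and the surface glycoprotein gene Cd200 by 0.87 and 0.76. Csf1 (-0.64 and -0.73) and Cxcr3 (-0.60 and -0.55) were lower. Cells with Tnfrsf9 were deeper, with medians of 5209 and 5398 UMIs against 3998 and 4646, and the part of depth in these ratios was not tested.

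**Figure D3:**
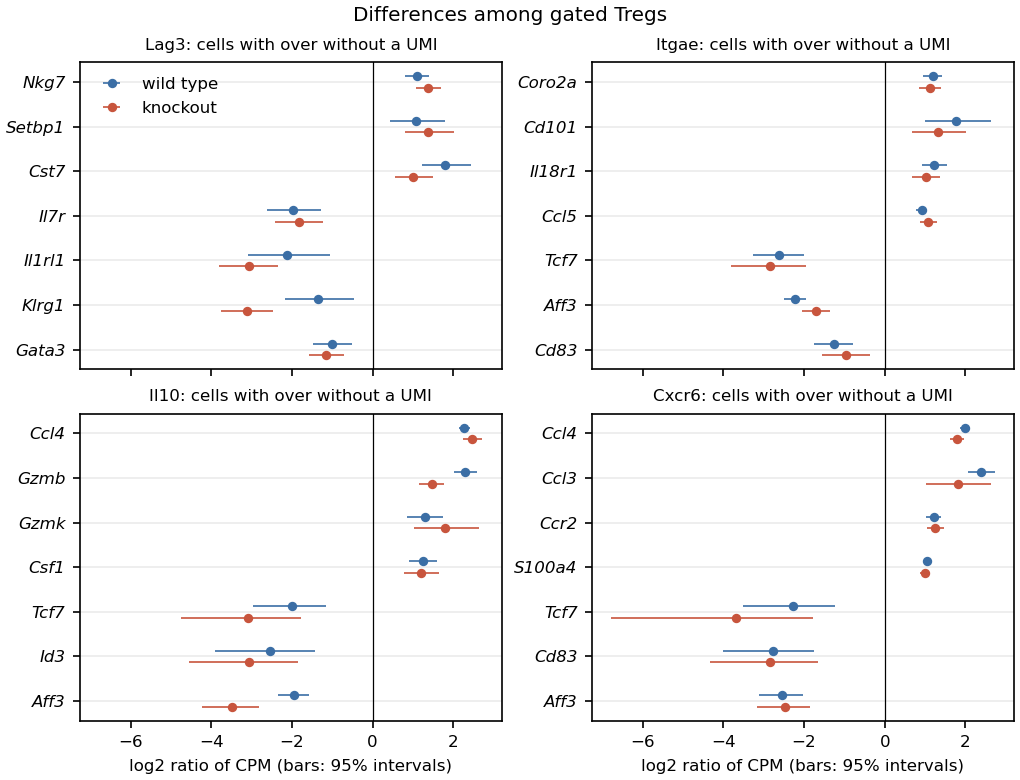
Log2 ratio of the CPM in gated cells with a UMI of a gene over gated cells without one, in each library, for genes outside the split. Ccl4 lies at 2.27 and 2.47 in the Il10 split. Id3 lies at -2.55 and -3.06 there, on 7 and 6 UMIs in the cells with Il10.

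Between genotypes the gated Tregs were close in most genes, with a median log2 ratio of knockout over wild type of 0.04 over 8178 genes. At 1.5-fold or more, 522 genes (6.38%) were higher and 236 (2.89%) lower in the knockout (9.27% either way). Under TMM scaling these counts were 378 and 341, so the excess of higher genes depended on the scaling. They also moved with the UMI minimum, to 795 and 506 at 20 UMIs and 178 and 29 at 200 UMIs. Without a replicate library these calls describe the size of a ratio and no more. Of 19 suppressive effector genes measured here 1 was higher and none lower, with a median of 0.20 beside 0.12 in other Tregs. None of 16 effector transcription factors passed, with a median of 0.18 beside -0.02 in other Tregs, and the lowest was Batf (-0.52, -0.65 to -0.39). None of 15 Treg identity genes passed. Foxp3, which the rule reads and that list leaves out, stood at 0.70 (0.31 to 1.09) in the gate and 0.70 in other Tregs. The suppressive effector gene that passed was Il1rl1, at 14.1 and 29.1 CPM (1.05). Entpd1 (0.19), Fgl2 (0.19), Tigit (0.19) and Ctla4 (0.02) were within 1.5-fold. The genes that the gate reads are given as a description only: Lag3 stood at -0.31, Itgae at -0.06, Il10 at 0.25 and Cxcr6 at 0.26.

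Transcripts lower in knockout gated cells included chemokines, Ly6a and Cd74. Ly6a, which encodes the surface protein Sca-1, fell from 3182 CPM to 1455 CPM, a log2 ratio of -1.13 (-1.18 to -1.07), and from 1678 to 863 CPM in other Tregs (-0.96). The 4 levels were separate, and at equal depth 84.6% and 60.6% of gated cells had a UMI of it, against 85.3% and 78.7% of resting-type CD8 T cells. Cd74, the invariant chain of MHC class II, fell from 207 to 99.95 CPM (-1.05), and in other Tregs from 92.3 to 57.4 CPM (-0.68). The rest of the myeloid list stood at 22.6 and 29.5 CPM in gated cells and at 16.3 and 10.7 CPM in other Tregs. Il1r2 fell from 171 to 88.1 CPM (-0.96, -1.19 to -0.73), with 68.6 and 56.7 CPM in other Tregs (-0.27).

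Ccl3, an inflammatory chemokine, fell from 97.6 CPM to 24.9 CPM (-1.97, -2.40 to -1.57), while in other Tregs it stood at 11.6 and 19.1 CPM (0.73). Few cells carried it: 6 of 637 wild-type gated cells held at least 50% of its UMIs, and without the 1% of cells with most of its UMIs the ratio was -1.36 in the gate and turned to -0.50 in other Tregs, where 1 knockout cell held 43 of 109 UMIs. Ccl4 was within 1.5-fold in the gate (-0.53, -0.64 to -0.43) and higher in other Tregs of the knockout (1.56). It was seen in 188 and 102 gated cells, and 16 and 6 of them held at least 50% of its UMIs. At 2000 UMIs per cell, 20.03% and 15.3% of gated cells had a Ccl4 UMI, against 13.7% and 5.85% of resting-type CD8 T cells. Of other Tregs 5.74% and 5.91% had one, and 5 knockout cells held at least 50% of the Ccl4 UMIs there. Leaving out the 1% of cells richest in Ccl4 gave -0.90 in the gate and 0.40 in other Tregs. Ccl5 fell from 939 to 500 CPM (-0.91), beside -0.74 in other Tregs. At equal depth it was seen in 40.7% and 27.4% of gated cells and in 35.6% and 18.5% of resting-type CD8 T cells. All CD8 T cells of the libraries held 9530 and 4291 CPM of it (-1.15), and the part of their free RNA in the Treg values was not tested.

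**Figure D4:**
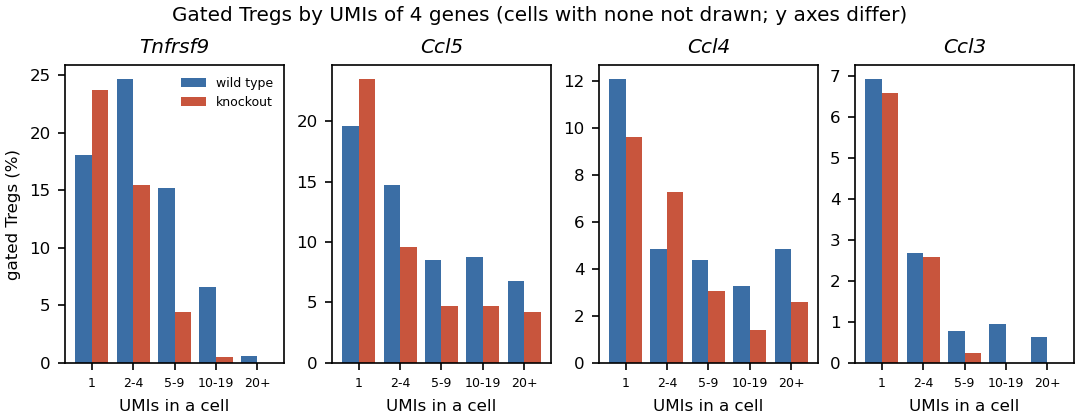
Share of gated cells of each library (y axis, %) by the number of UMIs of a gene in the cell (x axis, in bins), with cells that had none not drawn and a y axis of its own for each gene. Cells with 20 or more Ccl4 UMIs numbered 31 and 11.

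The other genes among the 15 lowest were Marcksl1, Lilrb4a, Serpina3g, Slc24a3, Ecm1, Lgals3bp, Gm26848, Tmem163, Mt2 and Capn1. With a Foxp3 UMI required, the Mt2 ratio turned to 0.91. Slc24a3, which encodes a sodium, potassium and calcium exchanger, fell from 102 to 48.1 CPM (-1.08), beside -0.13 in other Tregs. Marcksl1, an actin and membrane regulator, fell from 59.8 to 21.5 CPM (-1.47, -1.01 in other Tregs). Lilrb4a, an inhibitory receptor gene, fell from 39.5 to 11.8 CPM (-1.74), and Serpina3g, a protease inhibitor gene, from 449 to 231 CPM (-0.96). Lilrb4a and Serpina3g have near-identical neighbours with which reads can be split, so their values are uncertain.

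Nckap5 came next to Ccl1 in the ranking by ratio with 20 CPM added to each level. It rose from 24.3 CPM (19.4 to 29.95) to 97.8 CPM (85.7 to 111), a log2 ratio of 2.01 (1.65 to 2.39), and stood at 10.0 and 6.67 CPM in other Tregs (-0.59, -1.23 to 0.04). At 2000 UMIs per cell it was seen in 4.17% and 11.2% of gated cells, against 0.719% and 0.557% of resting-type CD8 T cells. The rise did not rest on single cells, with 2.34 after the richest 1% were left out. Ccl1, a CCR8 ligand, had 0 UMIs in wild-type and 86 in knockout gated cells (36.3 CPM). A single knockout cell held 81 of them, and only 5 cells had any.

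The remaining genes among the 15 highest were Samd9l, Prpf4b, Themis, Top2b, Hist1h1e, Gm42418, Ahnak, Cdkn1b, Neb, Rln3, Rab3gap2, Ptprc and Pcm1. Each of them had a ratio above 0 in other Tregs as well. Cdkn1b (p27), a brake on the cell cycle, rose from 29.6 to 67.1 CPM (1.18), with 1.06 in other Tregs. Ptprc (CD45) rose from 689 to 1192 CPM (0.79, 0.58 in other Tregs), and the splicing kinase gene Prpf4b by 1.18 (1.02). Themis, an adaptor of T cell receptor signalling, rose from 22.0 to 56.5 CPM (1.36), beside 0.34 in other Tregs. Neb, the giant actin-binding protein nebulin, rose by 0.87 (0.38). The 15 highest genes had a median longest annotated transcript of 5740 bases and the 15 lowest one of 1803 bases, against 3362 bases over the genes measured. The part of transcript length in these ratios was not tested.

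**Figure D5:**
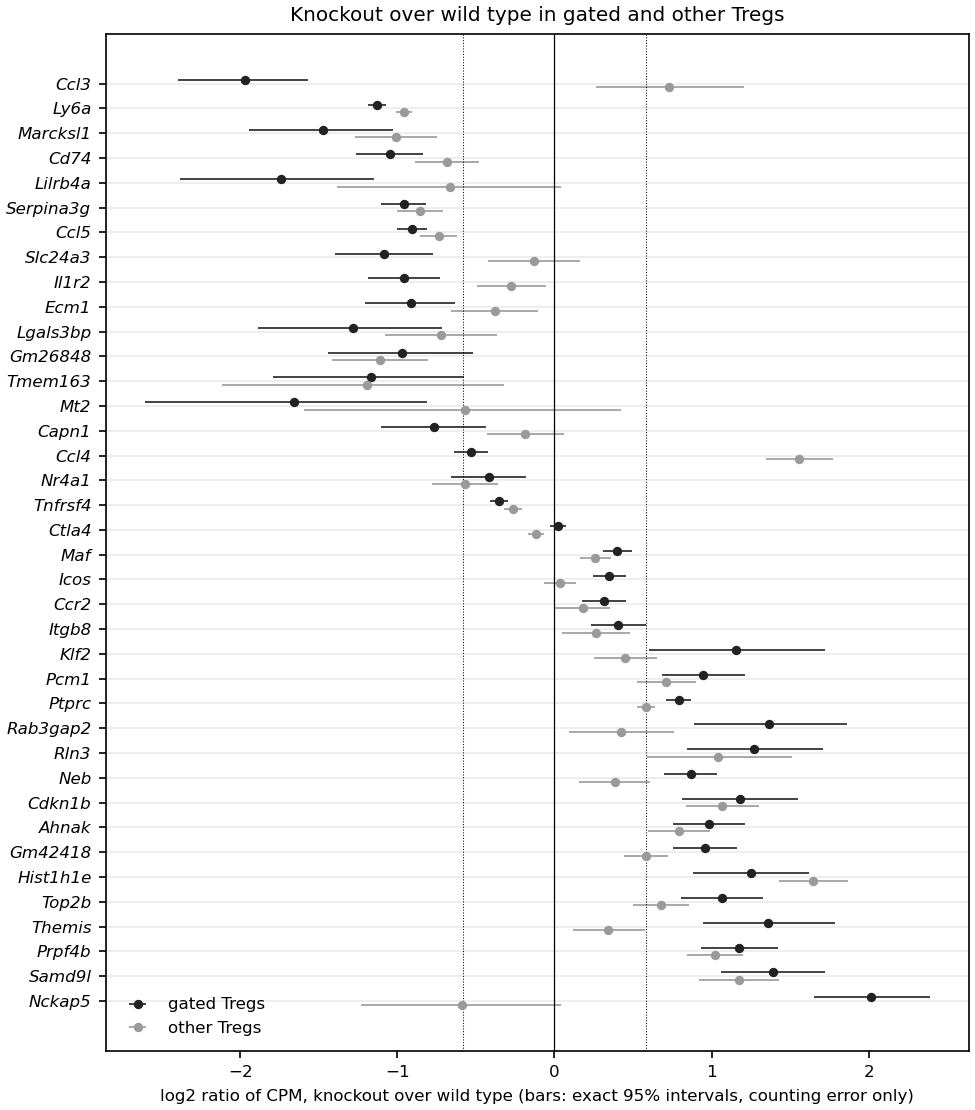
Log2 ratio of knockout over wild type in gated Tregs, with exact 95% intervals of counting error, beside the ratio in other Tregs. Nckap5 lies at 2.01 in gated and -0.59 in other Tregs. Tnfrsf9 and Ccl1 are not drawn.

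The list counts inside the gate stand beside the 9.27% of all measured genes that passed 1.5-fold either way. Of 12 resting and recirculation genes, Klf2 was higher (13.3 and 29.5 CPM, 1.16, 0.60 to 1.72) and Ccr7 lower (-0.67), with a median of 0.43, beside 0.30 in other Tregs and 1.12 in CD8 T cells. Of 13 interferon response genes, Ly6a, Irf7 (-0.76) and Usp18 (-0.75) were lower and none higher, and the median of -0.35 compared with -0.47 in other Tregs. The list of 10 TNF receptor family and ligand genes leaves out Tnfrsf9. Of its genes, Tnfrsf14 (HVEM, 0.79) and Tnfsf8 (CD30 ligand, 0.73, but -0.19 with a gate of 2 UMIs) were higher. Tnfrsf4 (-0.35) and Tnfrsf18 (GITR, -0.21) were not past the threshold. Of 15 TRAF and NF-κB genes, which lie downstream of CD137, Rel was higher (0.59) and Traf2 lower (-0.62), and the median was 0.00. Traf1 (-0.19), Nfkb1 (0.19) and Nfkb2 (-0.36) did not pass.

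None of 11 T cell receptor signalling genes passed, with Nr4a1 at -0.42. Of 14 homing receptors Cxcr5 was higher (0.65), while Ccr2 (0.31) stayed below the threshold. Of 12 genes of follicular or recently activated cells, Cxcr5 and Tbc1d4 (0.67) were higher. Among 10 cytokine and chemokine genes, Ccl1, Ifng (0.63) and Xcl1 were higher and Ccl3 and Ccl5 lower. Xcl1, a ligand for cross-presenting dendritic cells, stood at 10.4 and 21.9 CPM (1.07), but 5 cells held 73.1% of the knockout UMIs. Without the richest 1% of cells its ratio was 0.17, and with a Foxp3 UMI required it turned to -2.09.

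Of 7 granule genes, Gzmk (-0.74) and Serpinb6b (-0.62) were lower. Of 13 glycolysis genes, Pgk1 was higher (0.98) and Hk2 lower (to 5.48 CPM), both at low levels. Of 13 S100, annexin and galectin genes Ahnak alone was higher, and of 15 handling stress genes Fosb (0.88) and Hspa1b (0.86) were, with a median of 0.10. Of the 6 genes taken from the study's text (Tnfrsf4, Lef1, Klf2, Dnaja1, Ifngr1 and Sat1, with the gate gene Lag3 left out), Klf2 alone passed. The study gave them for Tregs of other mice, with and without a Cre-deleted Tnfrsf9, and not for these libraries. Among markers of other cells, the acinar list was higher in the knockout gate (87.3 against 38.1 CPM). With cells holding 2 or more UMIs of any list for other cells left out, the Tnfrsf9 ratio was -1.48, and 571 genes were higher and 217 lower of 7078 measured. Of the calls, 317 of 522 and 78 of 236 were shared with those in all gated cells. Nckap5 was then at 2.15, Ly6a at -0.99, Ccl3 at -1.57 and Cd74, itself on the myeloid list, at -0.63.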

How the data were processed

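The authors deposited raw UMI counts for 27998 genes per barcode, made with Cell Ranger 7.0.0 against mm10 (per the submitters' processing notes). Gene coordinates and transcript lengths came from GENCODE vM21. Ighm and Igkc were not in the gene table. Here UMIs were summed over the cells of each class and expressed as counts per 1000000 UMIs (CPM) of the class. Genes were measured with at least 50 UMIs in the gated cells of both libraries together (between genotypes) or in the Tregs of each library (gated over other), and log2 ratios were called at 2-fold in both libraries (gated over other) or 1.5-fold (knockout over wild type). A count of 0 entered a ratio as 0.5. Intervals (95%) were exact Poisson, exact binomial, Newcombe or exact conditional and cover counting error only. No test across samples was possible with 1 library per genotype. For shares at equal depth, cells were thinned to 2000 UMIs, leaving out 13 wild-type and 7 knockout gated cells.

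No doublet caller was run, and the rule drops cells with a Cd8a or Cd8b1 UMI. Named genes were those of 16 gene lists and of the lists for other cells, and the genes ranked by log2 ratio with 20 CPM added: the 15 highest and 10 lowest in gated cells, and 15 each way between genotypes. Other genes inside the gate were chosen after their values were seen. The members and lists were chosen with earlier results of these data known. Alternatives varied cell filters, Treg and gate definitions, scaling (TMM, edgeR 4.0.16 in R 4.3.3), cell weights, depth and the UMI minimum. Leaving out cells over the 95th percentile of UMIs, and the 1% of cells richest in a gene, was added after seeing the data. Python 3.11.15, numpy 2.4.6, scipy 1.17.1, pandas 2.3.3 and matplotlib 3.10.9 were used, and the code was tested on simulated data. Some list members are not reported here.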

Additional observations from a re-analysis of the deposited data

Results flagged for a closer look

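For 6 of 224 named genes with enough UMIs the ratio of knockout over wild type had opposite signs in gated and other Tregs, with neither counting interval reaching 0. The difference between the groups was not tested, since each ratio rests on 1 library per genotype. Ccl3 (-1.97 in gated, 0.73 in other Tregs) differed by -2.70 on the log2 scale, Ccl4 (-0.53 and 1.56) by -2.09, and Xcl1 (1.07 and -0.97) by 2.04. With a Foxp3 UMI required, the Xcl1 ratio in gated Tregs was -2.09. Tnfsf8 (0.73 and -0.50, and -0.19 in a gate of 2 UMIs) differed by 1.23, Gzmb (0.28 and -0.38) by 0.66 and the chaperone gene Hsp90ab1 (-0.14 and 0.06) by -0.20. Without the 1% of cells with most of its UMIs, Ccl3 was -1.36 in gated and -0.50 in other Tregs, which then had the same sign, and Ccl4 was -0.90 and 0.40. By the same measure Gzmb was 0.20 and 0.10, again with the same sign, Xcl1 0.17 and -1.66, Tnfsf8 0.75 and -0.70, and Hsp90ab1 -0.15 and 0.07. For Gzmb, 5 of 877 wild-type other Tregs held at least 50% of the UMIs, and the share of cells with a UMI was 18.7% and 16.7% in gated and 6.39% and 7.08% in other Tregs.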

How the results depend on the processing

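No paired analysis was possible because each genotype had 1 library, and no library could be left out for the same reason. The share difference kept its direction under every alternative run, and left its interval only with Lag3 out of the gate (-7.93 points). The Tnfrsf9 ratio was -1.29 with a Foxp3 UMI required and -1.30 with thinned cells. Genes higher in the knockout (522) numbered 335 with Foxp3 required, 874 with thinned cells, and 795 and 178 at UMI minimums of 20 and 200, and genes lower (236) numbered 147, 621, 506 and 29. Of these, 92 of the 522 and 14 of the 236 were shared when Foxp3 was required, where 3688 genes were measured. Shared calls were 317 and 78 with cells of other-cell markers left out (7078 genes measured) and 303 and 122 without the proliferation limit, although the counts themselves (571 and 217, 496 and 227) stayed close. Genes higher in gated cells (118) numbered 36 with Foxp3 required and 70 at a minimum of 200. Genes lower (288) numbered 76 and 109 under these, 130 without the proliferation limit, 112 when other Tregs obeyed the same limits, and 165 without cells over the 95th percentile of UMIs (chosen after seeing the data). TMM gave 378 higher and 341 lower between genotypes. Genes of the 16 lists past at least 1 threshold numbered 55, and 38 to 67 under the alternatives. The thresholds were 2-fold in gated over other Tregs in both libraries, and 1.5-fold in knockout over wild type inside the gate. Of all measured genes, 4.64% passed 2-fold and 9.27% passed 1.5-fold, either way. No share of all genes past at least 1 threshold is given, so whether 55 exceeds that background was not tested.

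Cell cycle genes turned to higher in gated cells without the proliferation limit, with log2 ratios in the wild type of 2810417H13Rik 0.84, Ccna2 1.22, Ccnb2 0.54, Cks1b 0.83, Hist1h2ap 1.23, Hmgb2 0.50, Nusap1 1.51, Rrm2 1.23, Stmn1 0.82 and Tuba1b 0.46, and in the knockout of 2810417H13Rik 0.90, Ccna2 0.63, Ccnb2 0.44, Cks1b 0.37, Hist1h2ap 0.85, Hmgb2 0.49, Nusap1 0.89, Rrm2 1.13, Stmn1 0.84 and Tuba1b 0.35. With other Tregs held to the same limits, only some of them turned to higher. In the wild type these were 2810417H13Rik 0.16, Ccna2 1.53, Ccnb2 0.31, Cks1b 0.029, Rrm2 0.56 and Stmn1 0.25. In the knockout they were 2810417H13Rik 0.51, Ccna2 1.31 and Stmn1 0.65. The rest of these genes stayed lower in each library. These limits act on cell cycle genes by construction. With Foxp3 required, Gzmb in wild-type gated over other Tregs was -0.41, Mt2 between genotypes 0.91, and Xcl1 -2.52 in knockout gated over other Tregs and -2.09 between genotypes. Tnfsf8 between genotypes was -0.19 with a gate of 2 UMIs. The cause of these was not tested. Of the named genes' other values, 6015 stayed within their interval and 1685 moved, and of list medians 621 and 83. A Foxp3 UMI was seen in 94 of 637 wild-type and 91 of 426 knockout gated cells, and the cause of its low count was not tested.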
